A study of Mus musculus with 7 samples.

Results

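Glycolysis and hypoxia response genes were followed in mice lacking the scaffold protein gene Iqgap1 and in wild-type mice, all labelled with topical 4OHT (4-hydroxytamoxifen, the active form of tamoxifen). They are 36 genes listed by name, of which 34 had a probe set naming them alone and were measured, out of 19937 genes on the array. The 2 others, Gpi1 and Eno1, were dropped. The measured genes comprise 18 glycolytic enzymes or their regulators, 3 glucose and lactate transporters and 13 other hypoxia genes. RNA was hybridised to 7 Mouse Gene 1.0 ST arrays: 2 of knockout and 2 of wild type at day 6, and 2 of knockout but only 1 of wild type at day 0. All groups share a mixed C57BL/6 and 129 background, and the day 0 samples carry the agent label too. The labels give no age, name no inducible protein and do not state whether replicates are separate mice, so p-values measure a spread that may be technical. The 2 wild-type arrays of day 6 carried opposite Xist and Y-linked signal, described below, so the spread of that pair is not technical alone. Values are log2 RMA expression values, on which a difference of 1 is a doubling of signal; they are compared between arrays within a gene, never between genes.

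Glycolysis turns glucose into pyruvate in the cytosol and, with lactate dehydrogenase, into lactate. Glucose enters through carriers such as the Slc2a1 product (GLUT1) and lactate leaves through monocarboxylate carriers. When oxygen is low, prolyl hydroxylases no longer mark the HIF-1 alpha protein for destruction, and the HIF dimer binds a short DNA core at genes of glucose uptake, glycolysis, pH control, angiogenesis and collagen hydroxylation. The epidermis is largely glycolytic and mildly hypoxic, since it has no vessels of its own. Skeletal muscle and nerve use their own isoforms of several glycolytic enzymes, encoded by Pfkm, Pgam2 and Eno3 in muscle and by Aldoc and Eno2 in nerve.

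Promoters of 7 of these genes are printed. Car9 and Car12 had the largest rises at day 6, Slc16a3 and P4ha2 a day change that differed between genotypes, and Egln3, Ankrd37 and Slc2a1 were picked, with their letters known, to show the core at different places. Aldoc, Pfkl and Vegfa rose more than Ankrd37 and Slc2a1 and are not printed. Each run of 300 bases covers 250 bases before and 50 after the start in RefSeq's table for GRCm38.p6, on the gene's own strand, 5′ to 3′, and capitals mark the HIF core, ACGTG or GCGTG, read on either strand (CACGT and CACGC are the core on the other strand).
Car9, chr4:43506776-43507075, plus strand: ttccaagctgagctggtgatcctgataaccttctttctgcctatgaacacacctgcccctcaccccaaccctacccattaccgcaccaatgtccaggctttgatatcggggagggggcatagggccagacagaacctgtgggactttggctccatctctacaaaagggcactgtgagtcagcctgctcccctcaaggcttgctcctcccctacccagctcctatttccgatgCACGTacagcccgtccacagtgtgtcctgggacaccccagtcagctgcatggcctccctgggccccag
Car12, chr9:66713436-66713735, plus strand: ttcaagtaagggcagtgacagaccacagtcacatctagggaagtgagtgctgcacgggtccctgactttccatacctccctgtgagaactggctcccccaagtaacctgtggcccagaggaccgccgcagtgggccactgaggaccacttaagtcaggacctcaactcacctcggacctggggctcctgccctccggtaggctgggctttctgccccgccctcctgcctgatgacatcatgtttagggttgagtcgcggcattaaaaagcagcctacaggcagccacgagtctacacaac
Egln3, chr12:54203825-54204124, minus strand: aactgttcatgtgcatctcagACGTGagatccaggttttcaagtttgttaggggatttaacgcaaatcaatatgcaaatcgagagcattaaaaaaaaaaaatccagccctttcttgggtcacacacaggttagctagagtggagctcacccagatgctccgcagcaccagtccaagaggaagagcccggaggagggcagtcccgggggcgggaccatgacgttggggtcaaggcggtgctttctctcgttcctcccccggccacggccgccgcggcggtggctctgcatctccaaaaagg
Ankrd37, chr8:45999801-46000100, minus strand: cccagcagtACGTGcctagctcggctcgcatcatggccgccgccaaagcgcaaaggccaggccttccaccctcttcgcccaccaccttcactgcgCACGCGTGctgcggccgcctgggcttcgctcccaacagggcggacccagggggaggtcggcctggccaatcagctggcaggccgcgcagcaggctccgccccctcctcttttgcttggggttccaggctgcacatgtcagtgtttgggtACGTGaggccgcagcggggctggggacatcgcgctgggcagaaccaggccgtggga
Slc2a1, chr4:119108495-119108794, plus strand: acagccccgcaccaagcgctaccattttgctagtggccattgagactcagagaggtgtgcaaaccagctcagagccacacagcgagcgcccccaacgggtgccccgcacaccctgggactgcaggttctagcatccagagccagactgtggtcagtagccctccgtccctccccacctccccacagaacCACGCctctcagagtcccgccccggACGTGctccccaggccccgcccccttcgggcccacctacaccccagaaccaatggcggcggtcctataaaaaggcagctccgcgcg
Slc16a3, chr11:120948817-120949116, plus strand: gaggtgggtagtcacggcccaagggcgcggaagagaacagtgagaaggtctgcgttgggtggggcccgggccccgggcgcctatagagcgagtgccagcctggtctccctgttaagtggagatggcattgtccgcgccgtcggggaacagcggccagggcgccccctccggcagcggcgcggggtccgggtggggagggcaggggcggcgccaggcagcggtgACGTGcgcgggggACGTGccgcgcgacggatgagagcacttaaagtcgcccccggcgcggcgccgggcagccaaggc
P4ha2, chr11:54100674-54100973, plus strand: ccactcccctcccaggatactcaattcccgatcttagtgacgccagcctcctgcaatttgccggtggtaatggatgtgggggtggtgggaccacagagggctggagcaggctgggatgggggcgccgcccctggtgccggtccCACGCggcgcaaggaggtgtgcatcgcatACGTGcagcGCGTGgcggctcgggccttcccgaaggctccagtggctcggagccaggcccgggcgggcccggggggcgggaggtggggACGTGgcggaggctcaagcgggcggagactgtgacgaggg
The core stands 18 bases before the start in Car9 and 229 before it in Egln3, and Slc16a3 holds it 27 and 14 bases before the start. Car12 holds 0 cores in this window, and of the 2 listed promoters of Vegfa the first holds 0 and the second 2. ACGTG or GCGTG lay in 35 of the 45 promoters of measured members (77.8%), against 43.8% of all 32851 promoters of the table. CACGTG, the E-box, reads as the core on both strands and was counted in these shares. Promoters of members were richer in G and C (median 61.3%, against 52.7%). Among promoters of 56.3% to 66.7% GC the shares were 18 of 23 (78.3%) for members and 61.5% for all. These are letter matches in a short window and were not measured as binding.

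The tissue, given in the labels only as mouse tissue, had 9 keratinocyte genes at a mean of 11.18 to 12.10 on all arrays, against a median gene level of 6.72. Signal for Iqgap1, the deleted gene, was 8.58 and 8.67 in day 6 knockout arrays, against 10.11 and 10.59 in wild type, and 9.02 and 8.99 in day 0 knockout arrays, against 9.94 in wild type. It was lower in each knockout array, but the limma adjusted p was 0.503 at day 6 and 0.0461 at day 0. Replicate 1 of wild type carried Xist signal without Y-linked signal on both days (Xist 10.30 at day 6 and 11.15 at day 0), and the 5 other arrays the reverse (Xist 3.55 to 4.03). At day 0 this split cannot be told apart from genotype. The single wild-type day 0 array also stood apart for these genes: it was the lowest of the 7 arrays for 22 of the 34 members and the highest for 0, against 17.5% and 20.3% of all genes. For some members for which that array lay far from the rest, results over both genotypes are also given without it. Results over both genotypes for genes of the further lists, among them Slc16a7 and Car2, are given with it only. The day change in wild type, the day 0 genotype difference and the difference in the day change have no value without it.

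Day 6 was first set against day 0 across knockout and wild type together. Most hypoxia genes were higher at day 6, led by the carbonic anhydrases Car9 at 14.1-fold and Car12 at 5.99-fold and the oxygen sensor Egln3 at 4.82-fold. The glycolytic enzymes split, with the liver and platelet phosphofructokinases and aldolase C higher and the muscle forms of phosphofructokinase, phosphoglycerate mutase and enolase lower. Of the 34 members, 15 rose and 3 fell at a limma adjusted p under 0.05, where 5.85% of all genes rose and 5.62% fell. The median log2 change was 0.82 over the members and 0.06 over all genes. By role, 8 of 13 other hypoxia genes rose and 0 fell (median 1.04), 6 of 18 glycolytic enzymes rose and 3 fell (median 0.33), and 1 of 3 transporters rose. Day 6 arrays lay wholly above day 0 arrays for 19 members and wholly below for 4, where 11.9% and 9.66% of all genes did so. Without the wild-type day 0 array, which leaves the change in knockout, 14 rose and 6 fell, where 7.24% of all genes rose and 9.07% fell.

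**Figure D1:**
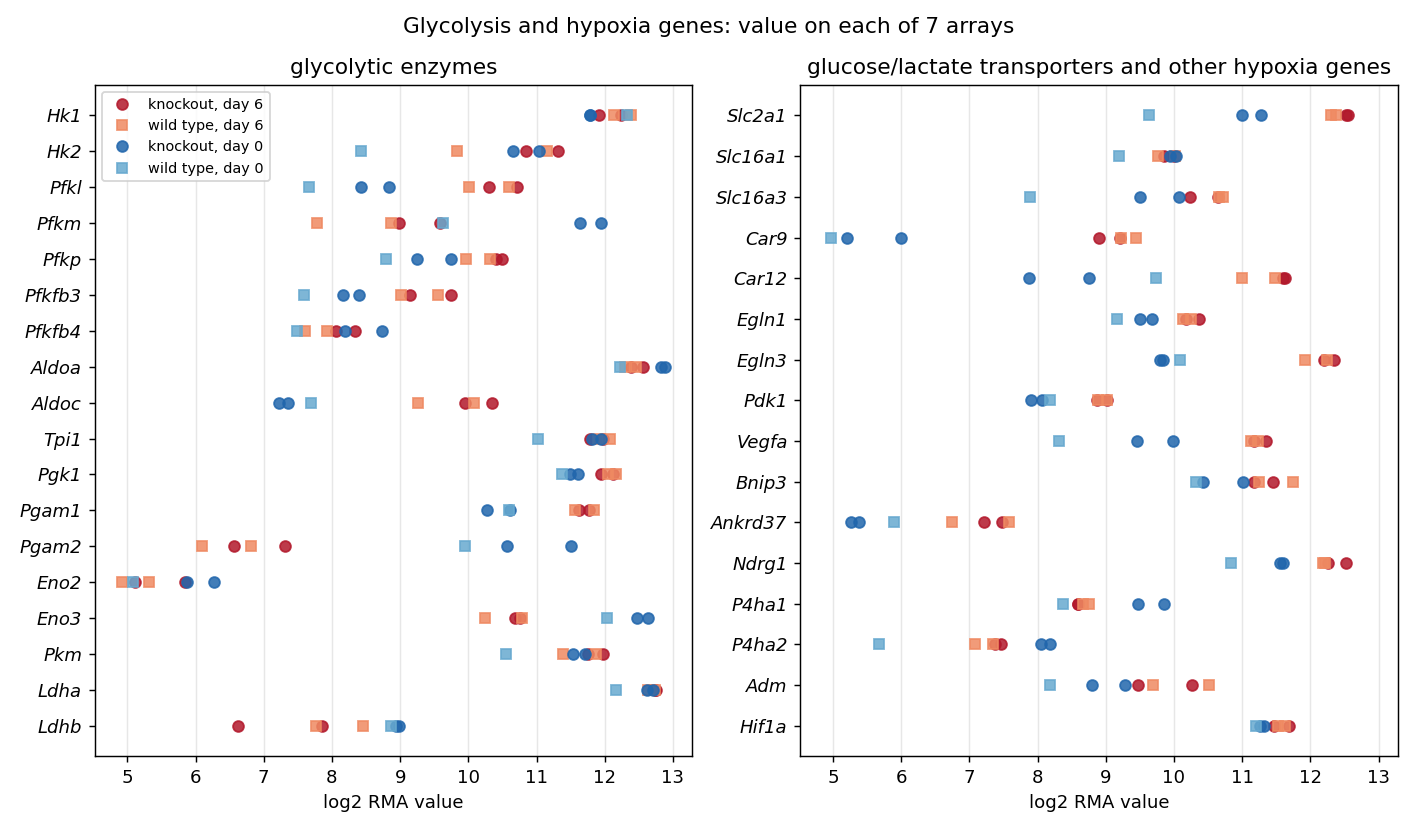
Each row is a gene and each point the log2 RMA value on 1 array (x axis); circles are knockout, squares wild type, reds day 6 and blues day 0. Car9 sits between 8.90 and 9.45 at day 6 and between 4.97 and 6.00 at day 0, while Pgam2 lies the other way (6.10 to 7.31, against 9.95 to 11.51).

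Among the carriers, Slc2a1 had log2 values of 12.55 and 12.52 in knockout and 12.30 and 12.37 in wild type at day 6, against day 0 values of 11.00 and 11.27 in knockout and 9.63 in wild type. All 4 day 6 arrays lay above all 3 day 0 arrays, and the day 6 arrays differed little from one another. The fitted change was 1.93 ± 0.27 (SE), a 3.80-fold rise (limma adjusted p = 0.00884). Slc16a3, which encodes the lactate exporter MCT4, had 10.24 and 10.65 in knockout and 10.66 and 10.72 in wild type at day 6, against day 0 values of 10.08 and 9.51 in knockout and 7.89 in wild type. The groups did not overlap, but the wild-type day 0 array lay far below the knockout arrays of that day and the gene did not pass (1.51 ± 0.44, adjusted p = 0.0756). Without that array its change was 0.65 ± 0.24 (adjusted p = 0.124). Slc16a1, the carrier MCT1, ranged from 9.20 to 10.03 over the 7 arrays with overlapping days (0.24 ± 0.18, adjusted p = 0.473).

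The phosphofructokinase step is the main control point of glycolysis. Pfkl, the liver-type subunit, had 10.30 and 10.72 in knockout and 10.01 and 10.60 in wild type at day 6, against day 0 values of 8.43 and 8.83 in knockout and 7.67 in wild type. It rose 4.54-fold (2.18 ± 0.25, SE, limma adjusted p = 0.00428). Pfkp, the platelet-type subunit, had 10.40 and 10.50 in knockout and 9.96 and 10.32 in wild type at day 6, against day 0 values of 9.24 and 9.74 in knockout and 8.80 in wild type. Its 2.16-fold rise was smaller, with a narrow gap between the days (adjusted p = 0.0137). Pfkfb3 makes fructose 2,6-bisphosphate, which activates phosphofructokinase. It had 9.15 and 9.74 in knockout and 9.01 and 9.55 in wild type at day 6, against day 0 values of 8.16 and 8.40 in knockout and 7.59 in wild type, a 2.60-fold rise (adjusted p = 0.0137). Its relative Pfkfb4 had 8.06 and 8.34 in knockout and 7.60 and 7.93 in wild type at day 6, against day 0 values of 8.19 and 8.74 in knockout and 7.49 in wild type. These days overlapped (-0.05 ± 0.21, adjusted p = 0.916). Without knockout day 0 replicate 1 or without knockout day 6 replicate 2, Pfkp and Pfkfb3 no longer passed (highest adjusted p 0.062 and 0.0594).

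Further down the pathway, aldolase C, known from nerve, rose most. Aldoc had 10.35 and 9.95 in knockout and 9.26 and 10.08 in wild type at day 6, against day 0 values of 7.35 and 7.22 in knockout and 7.70 in wild type. The groups were far apart, a 5.68-fold rise (2.51 ± 0.28, SE, limma adjusted p = 0.00386). The other nerve-type enzyme, Eno2, did not pass: it had 5.12 and 5.85 in knockout and 4.92 and 5.32 in wild type at day 6, against day 0 values of 6.27 and 5.87 in knockout and 5.09 in wild type (adjusted p = 0.461). Its signal was low on all arrays, below the median gene level of 6.72, so its lack of a call says little. Of 5 measured Schwann cell and nerve markers, 2 fell and 0 rose. Pgk1, which makes the first ATP of the pathway, had 12.12 and 11.95 in knockout and 12.16 and 12.05 in wild type at day 6, against day 0 values of 11.61 and 11.49 in knockout and 11.37 in wild type. The groups did not overlap and the rise was 1.50-fold (adjusted p = 0.0315), but it passed under 9 of 16 alternatives and was lost when any single array other than wild-type day 6 replicate 2 was left out (highest adjusted p 0.106). Pgam1, the general phosphoglycerate mutase, had 11.62 and 11.77 in knockout and 11.57 and 11.84 in wild type at day 6, against day 0 values of 10.27 and 10.61 in knockout and 10.59 in wild type. It rose 2.30-fold (adjusted p = 0.0052), measured by a probe set whose place is described below.

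Several central enzymes did not pass. Hk2, the inducible hexokinase, had 10.84 and 11.32 in knockout and 9.83 and 11.16 in wild type at day 6, against day 0 values of 11.03 and 10.65 in knockout and 8.42 in wild type. Its wild-type day 0 array lay far below the rest, and the other arrays overlapped (0.98 ± 0.47, adjusted p = 0.252). Tpi1, triose phosphate isomerase, had 11.79 and 11.98 in knockout and 11.90 and 12.08 in wild type at day 6, against day 0 values of 11.94 and 11.81 in knockout and 11.02 in wild type (adjusted p = 0.311). Pkm, pyruvate kinase, had 11.75 and 11.97 in knockout and 11.39 and 11.87 in wild type at day 6, against day 0 values of 11.54 and 11.71 in knockout and 10.55 in wild type (adjusted p = 0.156). For both, the low array was again the wild-type one of day 0. Without it the changes were 0.24 ± 0.43 for Hk2, 0.01 ± 0.17 for Tpi1 and 0.24 ± 0.21 for Pkm, where all arrays gave 0.98, 0.39 and 0.58. Aldoa and Ldha, the general aldolase and the pyruvate-reducing lactate dehydrogenase subunit, ranged from 12.22 to 12.88 and from 12.16 to 12.75 over all arrays, with adjusted p of 0.564 and 0.29.

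The 3 members that fell encode muscle-type enzymes. Pgam2, muscle phosphoglycerate mutase, had 6.56 and 7.31 in knockout and 6.10 and 6.82 in wild type at day 6, against day 0 values of 11.51 and 10.56 in knockout and 9.95 in wild type. It was 14.5-fold lower at day 6 (-3.85 ± 0.33, SE, limma adjusted p = 0.00187). Eno3, muscle enolase, had 10.69 and 10.76 in knockout and 10.24 and 10.79 in wild type at day 6, against day 0 values of 12.64 and 12.48 in knockout and 12.03 in wild type. It was 3.26-fold lower (adjusted p = 0.00297), with no overlap. Pfkm, muscle phosphofructokinase, had 8.99 and 9.59 in knockout and 7.78 and 8.86 in wild type at day 6, against day 0 values of 11.94 and 11.63 in knockout and 9.63 in wild type. It was 4.06-fold lower (adjusted p = 0.018), although knockout day 6 replicate 2 came within 0.1 of the wild-type day 0 array. That call was lost when any 1 of the 4 knockout arrays was left out (highest adjusted p 0.0715). Without the wild-type day 0 array the change of Pfkm was -2.50 ± 0.37 (limma adjusted p = 0.00599). Of 15 skeletal muscle markers 10 fell and 0 rose, with a median change of -1.88. Their mean was 9.05 and 9.50 in knockout and 8.28 and 9.27 in wild type at day 6, against day 0 means of 12.14 and 11.81 in knockout and 10.40 in wild type. Examples were Pvalb (28.8-fold lower) and Ckm (3.02-fold lower), a parvalbumin and the muscle creatine kinase. In bulk tissue fewer muscle cells and less RNA per muscle cell cannot be told apart, and the part of muscle content in the 3 falls was not tested.

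Ldhb, the lactate-oxidising subunit, had 6.62 and 7.86 in knockout and 8.46 and 7.77 in wild type at day 6, against day 0 values of 8.94 and 8.98 in knockout and 8.86 in wild type. All day 6 arrays were lower, but the spread at day 6 was wide and the gene did not pass over both genotypes (-1.33 ± 0.36, SE, limma adjusted p = 0.0624). Without the wild-type day 0 array, that is in knockout, it passed as lower (-1.72 ± 0.41, adjusted p = 0.0328). For Ldhb, Hk1, Bnip3 and Pgam1 the chosen probe set did not appear to lie at the gene: of the 20 probe sets next to it in ID order, at most 1 named a gene of the same chromosome. The neighbours of Hk1's probe set, for instance, named genes of chromosome 14, while Hk1 lies on chromosome 10. What such a probe set measures was not tested. Ldhb, Hk1 and Bnip3 have another probe set whose neighbours lie on the gene's chromosome, and with it all 3 passed. That choice was made after seeing the data.

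With its other probe set Hk1, the general hexokinase, had 10.11 and 10.11 in knockout and 9.26 and 9.93 in wild type at day 6, against day 0 values of 9.07 and 9.28 in knockout and 7.61 in wild type. It was 2.55-fold higher (1.35 ± 0.27, SE, limma adjusted p = 0.0249), whereas the chosen probe set, at 11.78 to 12.39, gave 0.14 ± 0.15 (adjusted p = 0.621). Without the wild-type day 0 array, that is in knockout, the other probe set gave 0.93 ± 0.24. In knockout against wild type at day 0 the other probe set gave 1.57 ± 0.29 (adjusted p = 0.0182) and the chosen one -0.55 ± 0.23 (adjusted p = 0.159). Ldhb at the other probe set had 6.10 and 6.87 in knockout and 7.07 and 6.81 in wild type at day 6, against day 0 values of 8.27 and 8.23 in knockout and 8.23 in wild type. It was 2.98-fold lower (adjusted p = 0.00808). Bnip3, a mitophagy receptor and HIF target, had 11.45 and 11.17 in knockout and 11.74 and 11.25 in wild type at day 6, against day 0 values of 11.02 and 10.43 in knockout and 10.32 in wild type by the chosen probe set (0.82 ± 0.23, adjusted p = 0.066), and was 1.91-fold higher by the other (adjusted p = 0.0413). Counted with these probe sets, 17 members rose and 4 fell.

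Of the hypoxia genes outside glycolysis, the pH regulators changed most. Car9, a membrane carbonic anhydrase that is a standard hypoxia marker, had 8.90 and 9.21 in knockout and 9.45 and 9.22 in wild type at day 6, against day 0 values of 5.20 and 6.00 in knockout and 4.97 in wild type. The change was 3.82 ± 0.27 (SE, limma adjusted p = 0.000968). Car12, a second membrane carbonic anhydrase, had 11.60 and 11.63 in knockout and 11.00 and 11.48 in wild type at day 6, against day 0 values of 7.88 and 8.75 in knockout and 9.73 in wild type. It rose 5.99-fold (adjusted p = 0.0123), and its day 0 arrays were spread over almost 2 log2 units. Of 14 further carbonic anhydrase genes 2 rose and 1 fell. Car2 (9.37-fold) and Car13 (1.93-fold) rose, and Car3, an enzyme abundant in fat and muscle, was 2.94-fold lower. Car2 had 10.87 and 9.79 in knockout and 9.75 and 10.52 in wild type at day 6. Its day 0 values were 5.82 and 6.14 in knockout and 8.59 in the 1 wild-type array.

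Oxygen sensors and metabolic switches also rose. Egln3 had 12.34 and 12.20 in knockout and 11.92 and 12.24 in wild type at day 6, against day 0 values of 9.84 and 9.80 in knockout and 10.09 in wild type. This gene encodes the prolyl hydroxylase PHD3, which is itself a HIF target, and its change of 2.27 ± 0.15 (SE) had the smallest p of the members (limma adjusted p = 0.000831). Egln1, the main HIF prolyl hydroxylase PHD2, had 10.37 and 10.18 in knockout and 10.25 and 10.14 in wild type at day 6, against day 0 values of 9.68 and 9.50 in knockout and 9.16 in wild type. It rose 1.77-fold (adjusted p = 0.0146), a call lost without knockout day 0 replicate 2 or knockout day 6 replicate 1 (highest adjusted p 0.0561). Pdk1, a kinase that shuts pyruvate out of the citrate cycle, had 9.02 and 8.87 in knockout and 9.02 and 8.88 in wild type at day 6, against day 0 values of 8.06 and 7.91 in knockout and 8.18 in wild type. The days were clearly apart, with a 1.85-fold rise (adjusted p = 0.00817). Hif1a itself ranged from 11.47 to 11.69 at day 6 and from 11.21 to 11.32 at day 0 and did not pass (0.32 ± 0.12, adjusted p = 0.141). HIF-1 alpha is controlled mainly at the protein level, which was not measured.

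Vegfa, the angiogenic growth factor, had 11.17 and 11.35 in knockout and 11.13 and 11.24 in wild type at day 6, against day 0 values of 9.99 and 9.46 in knockout and 8.31 in wild type. It rose 4.21-fold (2.07 ± 0.30, SE, limma adjusted p = 0.00921). Of 7 endothelial markers 1 rose and 0 fell. Ankrd37, a HIF target of little-known function, had 7.48 and 7.22 in knockout and 6.75 and 7.58 in wild type at day 6, against day 0 values of 5.27 and 5.39 in knockout and 5.89 in wild type, a 3.29-fold rise (adjusted p = 0.01). Ndrg1, a stress and differentiation gene, had 12.26 and 12.52 in knockout and 12.21 and 12.19 in wild type at day 6, against day 0 values of 11.55 and 11.60 in knockout and 10.83 in wild type, a 2.06-fold rise (adjusted p = 0.0109). In each of these genes the day 6 arrays lay above the day 0 arrays. Adm, the vasodilator adrenomedullin, had 9.47 and 10.27 in knockout and 10.52 and 9.69 in wild type at day 6, against day 0 values of 8.80 and 9.28 in knockout and 8.19 in wild type. It did not overlap between days but missed the threshold (1.26 ± 0.35, adjusted p = 0.0633).

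The collagen prolyl hydroxylases P4ha1 and P4ha2 went another way. P4ha1 had 8.60 and 8.59 in knockout and 8.76 and 8.66 in wild type at day 6, against day 0 values of 9.47 and 9.85 in knockout and 8.38 in wild type. P4ha2 had 7.37 and 7.47 in knockout and 7.08 and 7.35 in wild type at day 6, against day 0 values of 8.05 and 8.19 in knockout and 5.68 in wild type. In both, the day 6 arrays of both genotypes lay between knockout and wild type of day 0. Over both genotypes neither passed (adjusted p = 0.333 and 0.828), and without the wild-type day 0 array both fell (P4ha2 by 0.70 on the log2 scale, limma adjusted p = 0.0348).

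The next comparisons asked how each genotype changed on its own. In knockout 14 members rose and 6 fell, where 7.24% of all genes rose and 9.07% fell; wild-type arrays of day 6, set against 1 array of day 0, gave 14 that rose and 2 that fell, where 3.51% rose and 3.61% fell. Of the 34 members, 11 rose in both and 2 fell in both, P4ha2 passed in opposite directions, 6 passed in knockout alone, 2 in wild type alone and 12 in neither. Car9 rose by 3.45 ± 0.28 in knockout and 4.36 ± 0.34 (SE) in wild type, and Egln3 by 2.45 ± 0.17 and 2.00 ± 0.21 (limma adjusted p of 0.000524 to 0.00334). Slc2a1 rose by 1.40 ± 0.16 in knockout and 2.71 ± 0.20 in wild type. Car12 rose by 3.30 ± 0.31 in knockout, and had a change of 1.51 ± 0.38 in wild type that did not pass (adjusted p = 0.0638). Vegfa rose by 1.54 ± 0.21 in knockout and by 2.88 ± 0.26 in wild type. P4ha1 fell by 1.07 in knockout (adjusted p = 0.0094) and stood at 0.33 ± 0.22 in wild type (adjusted p = 0.5). Tpi1 and Slc16a3 were the members that passed in wild type alone (0.97 ± 0.20 and 2.80 ± 0.29). The median over members was 0.53 in knockout and 1.10 in wild type, beside 0.10 and 0.00 over all genes. The knockout count fell when any 1 of the knockout arrays was left out. The share of all genes that passed fell in each of these settings too.

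**Figure D2:**
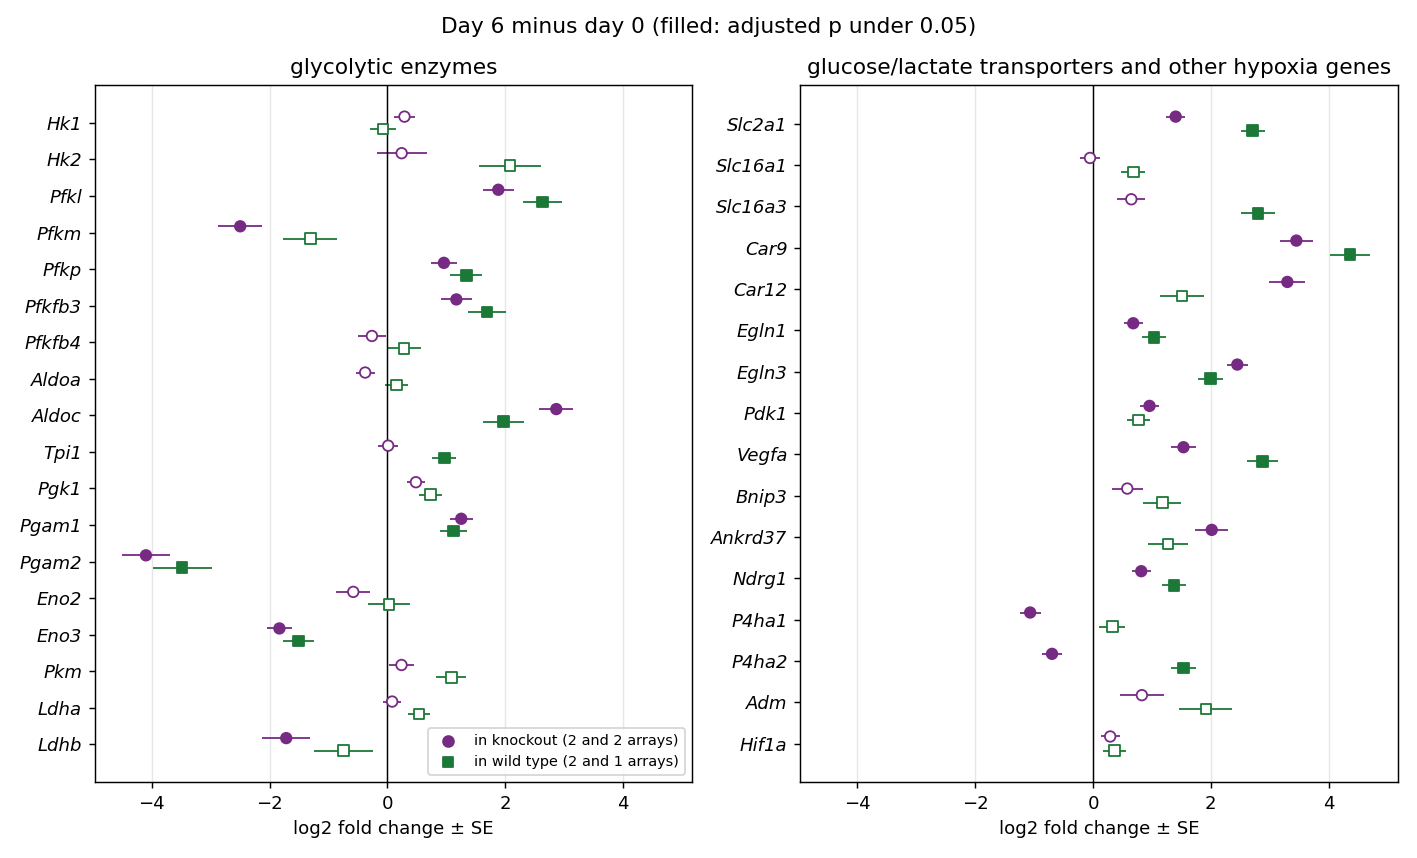
Log2 fold change of day 6 over day 0 (x axis, bars are the SE) for each member in knockout (circles) and in wild type (squares), filled where the adjusted p was under 0.05. Slc2a1, Slc16a3, Vegfa and P4ha2 lie further right in wild type, and Car12 lies further right in knockout (3.30, against 1.51).

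Whether the day change differed between genotypes was tested directly. Of the 34 members 2 passed, both with a lower change in knockout, where 1.35% of all genes passed in that direction and 1.76% in the other. P4ha2 differed by -2.23 ± 0.27 (SE, limma adjusted p = 0.011) and Slc16a3 by -2.15 ± 0.38 (adjusted p = 0.0344). Slc2a1 (-1.31 ± 0.26, adjusted p = 0.0515) and P4ha1 (-1.39 ± 0.28, adjusted p = 0.0557) came just short. The count was 0 without knockout day 6 replicate 1, and 1 without knockout day 0 replicate 1, knockout day 6 replicate 2 or wild-type day 6 replicate 2. Slc16a3 was lost in each of these and also without wild-type day 6 replicate 1 (highest adjusted p 0.122). The share of all genes that passed was also lower without any 1 of the knockout arrays, and higher without either wild-type day 6 array. This test rests on the single wild-type day 0 array and has no value without it.

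Knockout against wild type at day 6 had no member past the threshold. Limma called 0 of 34 members and 0.00% of all genes at an adjusted p under 0.05, while 1 member and 5.93% of all genes had an unadjusted p under 0.05. That member was Pfkm, with a difference of 0.97 ± 0.38 (SE, adjusted p = 0.801) and both knockout arrays above both wild-type arrays (8.99 and 9.59, against 7.78 and 8.86). Ldhb (-0.88 ± 0.41) and Pfkfb4 (0.43 ± 0.24) had the next smallest p. Car9, Egln3 and Slc2a1 differed by -0.28 ± 0.28, 0.19 ± 0.17 and 0.20 ± 0.16. Knockout arrays lay wholly above wild-type arrays for 8 members and wholly below for 3, where 15.9% and 15.7% of all genes did so. The median difference over members was 0.14, beside 0.00 over all genes. A p that misses the threshold does not show the genotypes to be alike.

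At day 0 the knockout arrays were higher than the wild-type array for many members. Of the 34, 9 passed as higher and 0 as lower at a limma adjusted p under 0.05, where 8.53% of all genes were higher and 5.86% lower; 19 members and 30.6% of all genes had an unadjusted p under 0.05. The 9 that passed were the carriers Slc2a1 (1.51 ± 0.20, SE) and Slc16a3 (1.91 ± 0.29), the enzymes Hk2 (2.42 ± 0.52), Pfkm (2.16 ± 0.46), Tpi1 (0.86 ± 0.20) and Pkm (1.08 ± 0.26), and Vegfa (1.42 ± 0.26), P4ha1 (1.27 ± 0.22) and P4ha2 (2.44 ± 0.21). Adjusted p lay between 0.00137 (P4ha2) and 0.0373 (Tpi1). Car12 pointed the other way (-1.41 ± 0.38, adjusted p = 0.0511). The median difference was 0.69 over members and -0.09 over all genes. Leaving out either knockout day 0 array sets 1 array against 1. The count of members dropped then, and so did the share of all genes past the threshold. The day 0 comparison shares its wild-type array with the wild-type day change above.

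Other measures moved with that array. The mean over 15 skeletal muscle markers at day 0 was 12.14 and 11.81 in knockout, against 10.40 in wild type, with 7 markers higher in knockout and 0 lower. Over 10 mitosis markers it was 6.35 and 6.52 in knockout, against 8.61 in wild type, with 0 higher in knockout and 6 lower. Over 7 endothelial markers it was 8.91 and 8.90 in knockout, against 7.78 in wild type. Over 9 keratinocyte markers it was 11.86 and 12.00 in knockout, against 11.18 in wild type. Both knockout arrays lacked Xist signal, which the wild-type array carried. The part of any of these in the day 0 differences was not tested, and with 1 array they cannot be told apart from genotype.

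**Figure D3:**
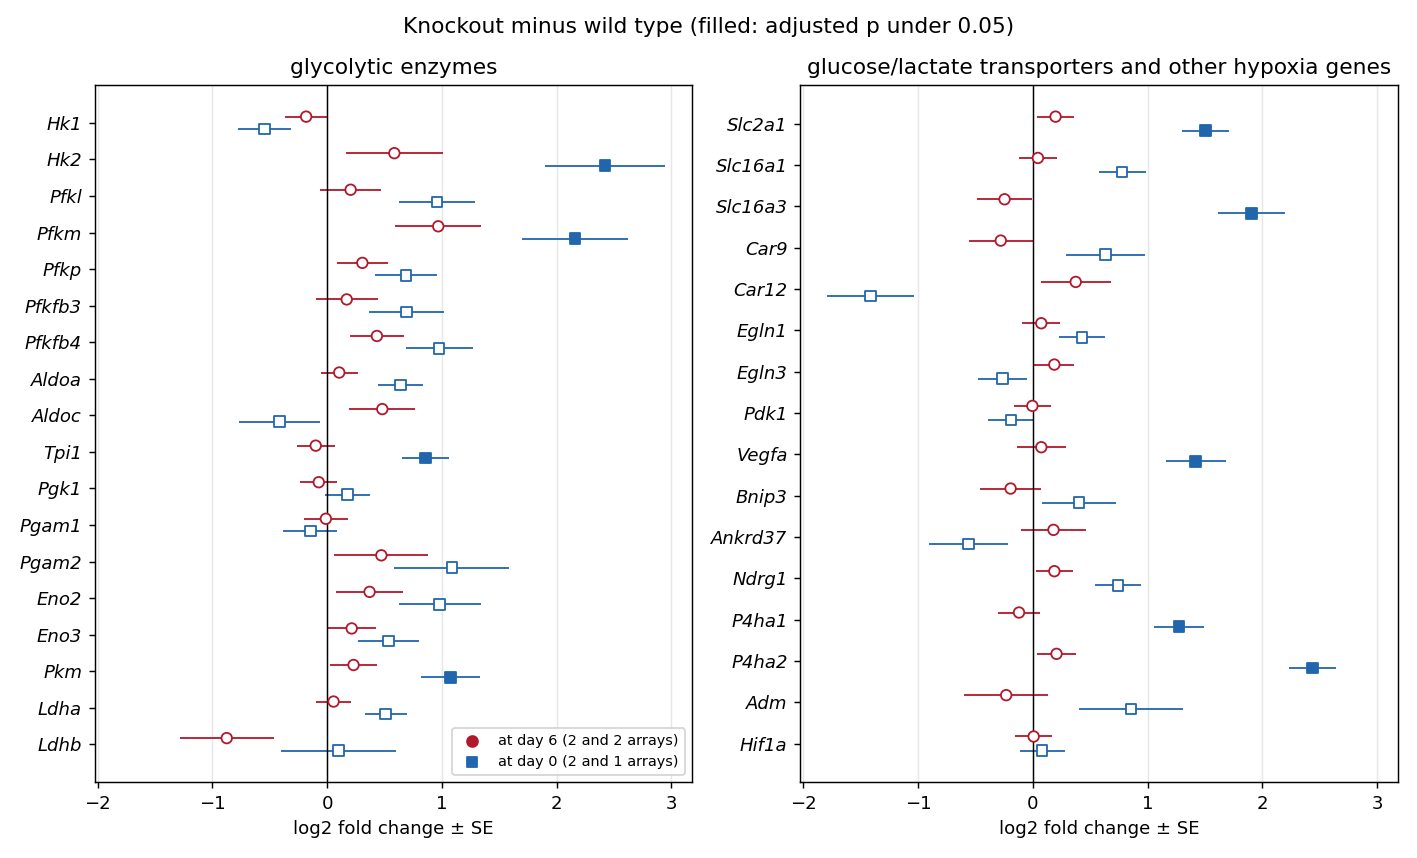
Log2 difference of knockout minus wild type (x axis, bars are the SE) at day 6 (circles) and at day 0 (squares), filled where the adjusted p was under 0.05. At day 6 no symbol is filled, and at day 0 the 9 filled symbols all lie to the right of 0.

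Over both days together, knockout against wild type gave 0 members and 0.00% of all genes at a limma adjusted p under 0.05, and 9 members and 18.7% of all genes at an unadjusted p under 0.05. Pfkm had 1.44 ± 0.36, Pfkfb4 0.65 ± 0.21 and Hk2 1.32 ± 0.47 (SE; adjusted p = 0.239, 0.239 and 0.246). Hk2 turned to -0.08 ± 0.28 (adjusted p = 0.985) without the 2 wild-type arrays with Xist signal. Without wild-type day 6 replicate 2 the count was 2 of 34, where 4.19% of all genes passed. That setting keeps only the 2 wild-type arrays with Xist signal, so genotype and the Xist split cannot be told apart in it.

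Further genes of the same pathways were taken from lists chosen by function. Of 31 measured further HIF pathway and target genes, 7 rose at day 6 over both genotypes and 2 fell (median 0.21). Over all genes 5.85% rose and 5.62% fell. Ddit4, an inhibitor of mTOR signalling, rose 5.29-fold (2.40 ± 0.17, SE, limma adjusted p = 0.000946). It had 11.27 and 11.37 in knockout and 11.17 and 11.35 in wild type at day 6, against day 0 values of 8.68 and 8.61 in knockout and 9.26 in wild type. Fam162a, a hypoxia-induced mitochondrial protein gene, rose 4.43-fold, the adenylate kinase gene Ak4 2.62-fold and the Myc antagonist gene Mxi1 2.29-fold. Ppp1r3c, a glycogen-targeting phosphatase subunit, was 12.3-fold lower and the vasoconstrictor gene Edn1 was 2.78-fold lower. The share of the list that fell was close to that of all genes.

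Of 17 further glycolysis genes 0 rose and 2 fell: Slc16a7, a monocarboxylate carrier (5.56-fold lower), and Pfkfb2 (1.68-fold lower; limma adjusted p = 0.039 and 0.0304). Of 25 genes of pyruvate dehydrogenase and the citrate cycle 0 rose and 5 fell, among them Sdhb, a subunit of succinate dehydrogenase (1.92-fold lower), and Pdhb, a subunit of pyruvate dehydrogenase (1.59-fold lower). Their median change was -0.35. Of 6 pentose phosphate genes 1 rose, Pgd, by 1.81-fold. Beside these lists and the marker lists, 5.85% of all genes rose and 5.62% fell. Among marker lists, 7 of 8 stressed keratinocyte genes and 5 of 10 mitosis genes rose and 0 fell, 2 of 9 keratinocyte genes rose and 0 fell, and 6 of 8 adipocyte genes fell and 0 rose. No gene passed in the macrophage (7 genes), neutrophil (9) and erythrocyte (3) lists. In knockout 10 of 10 mitosis genes rose (median 2.66), where 7.24% of all genes rose. Their median change in wild type was 0.45, and the median difference between genotypes in the change was 2.68. Both of these rest on the 1 wild-type day 0 array, where the mitosis mean was 8.61, against 6.35 and 6.52 in knockout. At day 6 the means overlapped, with 9.19 and 9.36 in knockout and 8.62 and 9.52 in wild type. How much of the members' changes went with these cell types was not tested.

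**Figure D4:**
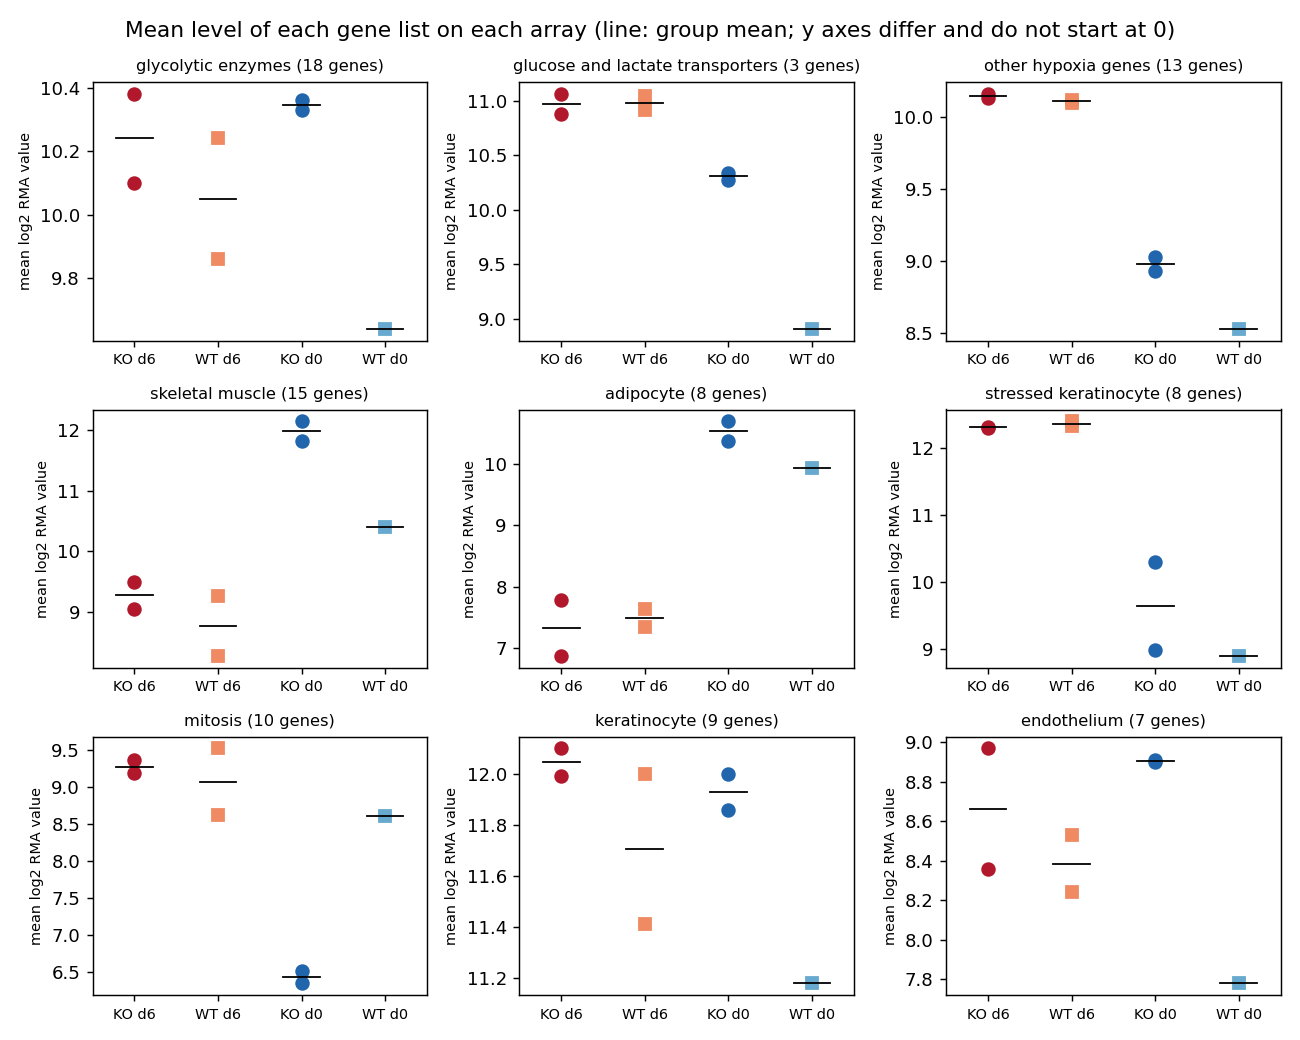
Mean log2 RMA value of each list (y axis, a scale of its own in each panel) on each array, with groups along the x axis and a line at the group mean. The 13 other hypoxia genes lie at 10.10 to 10.16 on all 4 day 6 arrays, against 8.53 to 9.03 at day 0, while skeletal muscle and adipocyte genes lie lower at day 6.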

How the data were processed

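The deposited values are on a log2 scale, which their range of 2.37 to 13.38 bears out, for 34760 probe sets. The submitters' processing notes name RMA and R 2.11.1 as what the authors ran. RMA corrects background and normalizes arrays by quantiles. Differences between low values can be compressed. Array batches are not given in the sources used here. Per gene, the probe set naming it alone with the highest mean over 7 arrays was kept (19937 genes). Names came from the platform's gene table, and 19852 genes matched GRCm38.p6 RefSeq by identifier.

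Tests used limma 3.58.1 in R 4.3.3 (lmFit, eBayes), two-sided, Benjamini-Hochberg over 19937 genes, threshold 0.05. Day and genotype effects over all arrays came from an additive fit (4 residual degrees of freedom), the 5 others from 4 group means (3), where the lone wild-type array of day 0 is assumed to vary like the rest. The procedure was tested on simulated data. Members and lists were chosen with earlier results of these data known. Per-array values are given for members that passed any comparison, came just short, had the smallest p or are muscle or nerve forms; of the pathway lists, up to 4 passing genes per direction are named. Settings tried were a replicate block, leaving arrays out, other probe sets, filters, variance models and scalings. Array number, not depth, limits precision.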

Additional observations from a re-analysis of the deposited data

Results flagged for a closer look

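These 2 results stand out because the day change differed between genotypes by its own limma test. For P4ha2 the change in knockout minus that in wild type was -2.23, and for Slc16a3 it was -2.15. Both rest on the single wild-type day 0 array, at 5.68 for P4ha2 and 7.89 for Slc16a3, the lowest of the 7 arrays for each gene.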

How the results depend on the processing

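Of the counts of members past the threshold, that of the day change over both genotypes stayed within 1.5 times of 18 under all 16 alternatives (14 to 24), that of wild type within 1.5 times of 16 under all 13 (11 to 22), and that of knockout against wild type at day 6 was 0 under all 15. Leaving out 1 array at a time gave 12 to 20 members for the day change in knockout, 4 to 13 for genotype at day 0, 0 to 2 for genotype over both days and 0 to 2 for the difference in the day change. With trend and robust variances genotype at day 0 gave 14 and the difference in the day change 4. With all probe sets adjusted together that difference gave 1, and with a replicate block 1. Averaging the group contrasts gave 8 members for genotype over both days, where 11.8% of all genes passed. The share of all genes past the threshold also moved across these settings.

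Same-numbered arrays deviated together only weakly (correlations of 0.037, 0.086 and 0.227), so the numbers were not taken as pairs. With the replicate block Slc16a3 no longer passed the difference in the day change (adjusted p = 0.0514), nor did Tpi1 pass in wild type (0.0709) or at day 0 (0.0665), and day 0 gave 8 members higher and 1 lower, while the day change over both genotypes gave 15 higher and 3 lower as without the block.

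Among the genes followed through the alternatives in each comparison, signs turned in 9 cases, none of a value that passed as reported. Outside these, Hk1 turned with its other probe set, to 1.99 in wild type (adjusted p = 0.0111, against -0.07), 1.57 at day 0 (0.0182, against -0.55), 0.51 at day 6 (0.801, against -0.18), 0.93 over both days (0.239, against -0.33) and -1.06 for the difference in the day change (0.22, against 0.36). For the day change over both genotypes, Pfkfb4 turned to 0.14 without knockout day 0 replicate 2, 0.08 without knockout day 6 replicate 1, 0.05 with centred arrays and 0.01 with averaged contrasts, with a range of -0.26 to 0.14 over single arrays left out. Slc16a1 turned to -0.05 and P4ha2 to -0.70, each both without the wild-type day 0 array and without both wild-type arrays with Xist signal. Leaving out single arrays gave -0.05 to 0.35 for Slc16a1 and -0.70 to 0.46 for P4ha2. P4ha2 passed as lower in those settings (adjusted p = 0.0348 and 0.0216). Without both of those wild-type arrays Hk2 turned to -0.08 for genotype over both days. The cause was not tested. The counts over all genes, 2286 for the day change over both genotypes, ranged from 727 to 4027, 3251 in knockout from 1381 to 4027, 2869 at day 0 from 1239 to 4328, 1418 in wild type from 983 to 2209, and 619 for the difference in the day change from 143 to 1038; those of 0 reached 43 at day 6 and 2355 over both days. The core ACGTG alone lay in promoters of 22 of 33 members (66.7%), where 24.4% of measured genes held it, and either core in 29 (87.9%, against 55.3%). A gene was counted if any of its promoters held the core, and base composition was not matched. Among promoters of 56.3% to 66.7% GC, ACGTG alone lay in 11 of 23 promoters of members (47.8%), against 25.8% of all. The promoter of Ndrg1 was not analysed here.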

Other observations

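Of 17 further glycolysis genes, 4 passed as lower in knockout at day 0 and 3 as higher, set against the 1 wild-type array. Over all genes 5.86% were lower and 8.53% higher. Fbp1, which encodes the gluconeogenic fructose bisphosphatase, had 4.53 and 4.63 in knockout and 11.13 in that wild-type array, a difference of -6.55 ± 0.46 (SE, limma adjusted p = 0.000625). At day 6 it had 4.95 and 6.04 in knockout and 6.85 and 6.21 in wild type. Slc16a7 had 7.57 and 6.89 in knockout, against 10.32 in wild type at day 0, and Bpgm, the bisphosphoglycerate mutase of red cells, had 6.51 and 6.28 in knockout, against 7.90 in wild type. Gys1, the muscle glycogen synthase, belongs to the further HIF pathway and target genes and lay the other way. It had 10.69 and 10.39 in knockout and 8.04 in wild type (2.51 ± 0.22, limma adjusted p = 0.00147). These values rest on 1 wild-type array and have no replicate check in that group.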
